A study of Mus musculus with 6 samples.

Results

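Circular RNAs (circRNAs) of genes that act downstream of the ErbB receptors and in RAS-MAPK signalling were examined in mouse ovary. The rule named 42 genes: ErbB receptors other than Egfr, their ligands, adaptor proteins, negative regulators, and members of the RAS-RAF-MEK-ERK chain. Of these, 31 hosted 157 of the 27999 circles in the deposited catalogue, which came from 7411 host genes. The series compared whole ovaries of C57BL/6 mice, an inbred strain, at postnatal day 5 (neonatal, n = 3 libraries) and at 6 weeks (adult, n = 3 libraries). Total RNA was treated with RNase R, which digests linear RNA and spares circles, and was read as 150 nt pairs, per the labels' protocols. The mice carried no stated allele or treatment, and the labels do not say whether a library held ovaries of 1 animal or of several. The p-values therefore reflect how these libraries vary, and some of that may be technical.

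A circRNA forms when the donor at the end of an exon is spliced back to the acceptor at the start of the same or an upstream exon, and it is recognised by reads across this back-splice junction. ErbB receptors bind ligands of the epidermal growth factor family and, once paired and phosphorylated, recruit adaptors that bring SOS exchange factors to RAS. RAS then activates RAF kinases, which phosphorylate the MEK kinases and through them ERK, while neurofibromin and CBL ubiquitin ligases damp the signal. In the ovary, epidermal growth factor-like ligands relay the luteinizing hormone surge to granulosa and cumulus cells.

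The authors' deposited table compares groups called A and B, and no source used here ties either letter to an age. Values per library are headed by the same letters and were not used, so no level per sample, no spread and no depth per library can be given. The authors' deposited table gives each circle a log2 fold change of A over B, computed on fragments scaled to length and depth (FPKM), which is infinite where a circle has values in only 1 group. It also gives a p-value from an unnamed test and a p adjusted over all circles, and marks as different the circles with p under 0.05 whose log2 fold change lies at or beyond 1 in either direction. A deposited p of 0.423 is what an unequal-variance test returns when a single library holds a value, and such circles were taken as seen in a single library. Whole ovary RNA mixes cell types, so fewer cells of a type and less RNA per cell cannot be told apart. Of 26 oocyte, granulosa, theca and luteal marker genes, 14 hosted a listed circle, as did all 3 endothelial markers and 0 of the 7 leukocyte, oviduct and fat markers. A listed circle does not measure the level of its host's messenger RNA.

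Nf1, which encodes the RAS GTPase-activating protein neurofibromin, had 31 circles, and 20 hosts of the whole catalogue had more. Pak2, a RAC- and CDC42-activated kinase gene, followed with 11 and the RAF kinase gene Braf with 10. The endocytic adaptor gene Eps15 and the transcription factor gene Stat5b had 9 each. Plcg1 (phospholipase C gamma 1), Ptpn11 (the SHP2 phosphatase) and Sos2 (a RAS exchange factor) had 8 each, and the receptor gene Erbb2 had 7. The median was 4 circles per host, against 2 for all hosts of the catalogue, and 8 hosts had a single circle. No circle was listed for 11 members, namely the kinase genes Araf and Mapk3, the receptor gene Erbb3, the ligand genes Hbegf, Nrg3 and Nrg4, the inhibitors Errfi1, Spry2 and Rasa1, the adaptor gene Grb2, and Stat5a.

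**Figure D1:**
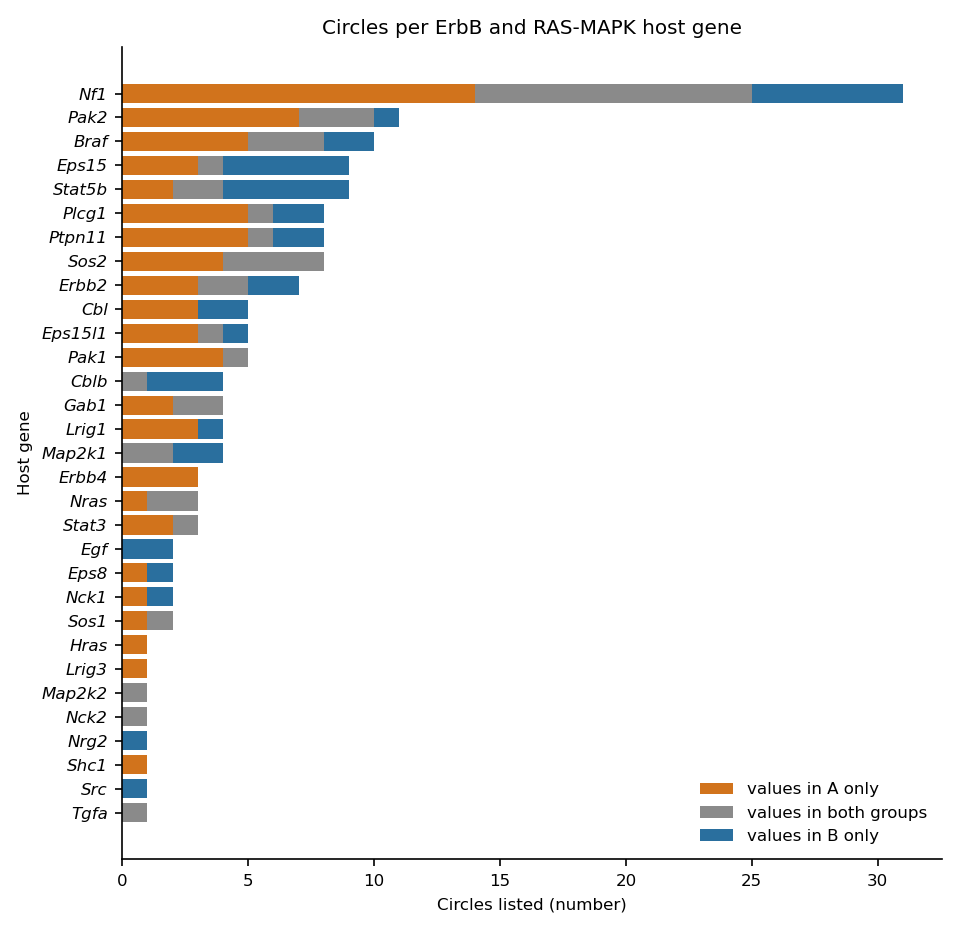
Number of listed circles (horizontal axis) for each of the 31 host genes (vertical axis), with bars split into circles with values in group A only, in both groups and in B only. Nf1 has 31 circles and no other host more than 11; Sos2, Pak1, Gab1 and Erbb4 are among the hosts with none in B only, and Cblb and Map2k1 among those with none in A only.

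Most circles were seen in a single library. A single library held a value for 98 of the 157 (62.4%), against 62.0% of the catalogue. Values were in A only for 75 circles (47.8%, catalogue 46.5%), in B only for 40 (25.5%, catalogue 24.5%) and in both groups for 42 (26.8%, catalogue 29.0%). Of the 59 circles found in at least 2 libraries, group A had the higher value for 42 (71.2%), against 70.1% of all such circles of the authors' deposited table. The 42 circles with values in both groups came from 20 hosts, and their median log2 fold change in the authors' deposited table was 0.45, against 0.42 over the catalogue. Over all 157 circles 65.6% were higher in A, against 66.0% of the catalogue, and with values in both groups 66.7%, against 67.3%. Marker genes of ovarian cell types divided between the groups. Of circles found in at least 2 libraries, 7 of 7 from oocyte markers, 3 of 11 from granulosa markers and 0 of 3 from theca and luteal markers were higher in A. With circles of a single library included, listed circles came from only 5 oocyte, 6 granulosa and 3 theca and luteal marker genes. The directions above therefore rest on no more genes than these, and circles of the same gene are not independent. Of 24 granulosa marker circles the authors' deposited table marked 1, toward B, where it marked 0.521% of all circles toward B. The part of cell type makeup in the directions given for any host was not tested. Counting each of 22 hosts once gave a mean share of 57.1% higher in A. The catalogue share was not computed in this way, so 57.1% cannot be set against 70.1%. Leaving out Nf1 gave 27 of 43 circles (62.8%) and a median log2 fold change of 0.19 over the 31 circles with values in both groups in the authors' deposited table.

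The authors' deposited table marked 1 of the 157 circles (0.637%), where it marked 1.75% of all circles. Of circles found in at least 2 libraries it marked 1 of 59 (1.69%), against 4.59% of all such circles in either direction and 1.37% toward B, the side of the marked circle. A deposited p under 0.1 was found for 5 of these 59 (8.47%), against 8.59% of all such circles. The smallest adjusted p did not reach 0.05 for any circle of the authors' deposited table (0 circles), where 545 (1.95%) had an unadjusted p under 0.05. The circles named below are therefore described by their values, and none of them is set apart by the adjusted p.

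**Figure D2:**
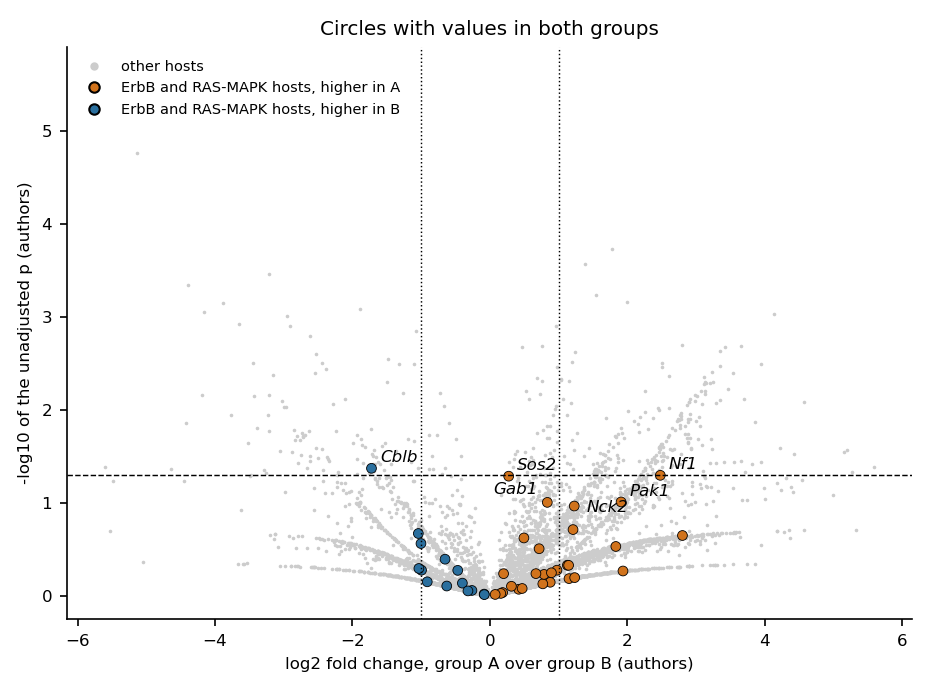
Log2 fold change of A over B (horizontal axis) against -log10 of the unadjusted p (vertical axis), both from the authors' deposited table, for circles with values in both groups; grey points are other hosts, the dashed line is p = 0.05 and dotted lines a log2 fold change of 1 and -1. The Cblb circle alone lies past both limits among the 42 coloured points, and circles of Nf1, Sos2, Pak1, Gab1 and Nck2 come next by p.

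The marked circle came from Cblb, which encodes a ubiquitin ligase that attaches ubiquitin to activated receptor kinases. Its circRNA6488 had, in the authors' deposited table, a 3.30-fold higher value in B, or -1.72 on the log2 scale of A over B (p = 0.0426, adjusted p = 0.522). It is exon 3 of 18 closed on itself, on chromosome 16 from 52047199 to 52047449 of GRCm38 (plus strand). Its 251 nt are coding sequence for residues 57 to 140 of 938, in the amino-terminal domain that binds phosphotyrosine. The exon lies between introns of 14008 and 64651 nt. The other 3 Cblb circles joined exons 5 to 9, 5 to 10 and 13 to 17 and had a value in a single library each, in B. The whole circle is shown because it is the only marked one, and its length of 251 nt is not a multiple of 3. The capitals are the 20 bases at each end that meet at the back-splice junction (GENCODE M21 transcript, GRCm38).
Cblb circRNA6488: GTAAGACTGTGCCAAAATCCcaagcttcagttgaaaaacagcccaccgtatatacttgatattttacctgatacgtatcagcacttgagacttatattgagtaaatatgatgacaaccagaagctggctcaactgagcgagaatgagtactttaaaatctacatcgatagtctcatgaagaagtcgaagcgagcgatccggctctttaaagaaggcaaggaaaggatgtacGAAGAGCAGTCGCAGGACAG

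Cbl, the closest relative of Cblb among the hosts, had 5 listed circles. Its exons 7 to 10 (circRNA12172) had values in A only (p = 0.205 in the authors' deposited table), and exons 7 to 9 were seen in a single library of A. The ends of circRNA12172 enclose 4 exons of the named isoform, but its deposited exon count is 5, so its exon content is uncertain. Exons 2 and 3 and an intronic circle were each seen in a single library of B, and an exonic circle that could not be placed in a single library of A. Among the 5, only circRNA12172 had values in more than 1 library.

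Among receptors, Erbb2 had 4 exonic and 3 intronic circles. The circle of exons 2 to 4 of 27 (circRNA14159, residues 25 to 193 of 1256, in the extracellular part) stood at -0.08 on the log2 scale in the authors' deposited table (p = 0.959). In the authors' deposited table, the circle of exons 11 and 12 (circRNA5206, residues 409 to 506, also extracellular) stood at 2.80 (p = 0.225). No other of the 42 circles lay further toward A. Of the intronic circles, ciRNA95 had values in A only (p = 0.194 in the authors' deposited table), and the others were seen in a single library of B. Erbb4, the neuregulin receptor gene, had 3 circles, all in A only, as were 46.5% of all catalogue circles. The 3 Erbb4 circles start at exon 15 of 28 and run to exons 19, 20 and 25. Their first residue is 573 and their last is 767, 829 or 1045 of 1308, so each runs from the extracellular part across the membrane segment into the kinase domain. The longest of them spanned 226924 nt of chromosome 1, the widest span among the hosts described here. The authors' deposited table gave p = 0.23 and 0.249 for the shorter ones, and the longest was seen in a single library.

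Ligand genes gave few circles. Tgfa, which encodes transforming growth factor alpha, had 1 circle of exons 4 and 5 of 6 (circRNA8696), which stood at -0.32 on the log2 scale in the authors' deposited table (p = 0.885). Egf, the epidermal growth factor precursor gene, had circles of exons 7 to 12 and 13 to 16 of 24, and Nrg2, a neuregulin gene, had 1. All 3 were seen in a single library of B. Lrig1, which encodes a membrane protein that restrains ErbB receptors, and its relative Lrig3 had 4 and 1 circles, each seen in a single library. The shortest exonic circle of all hosts here was Lrig1 circRNA16990, with 147 nt from exons 2 and 3.

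Gab1, a docking protein gene, had 4 circles that all begin at exon 2 of 10. Group A had the higher value for all 4, and for 66.0% of all catalogue circles. Exon 2 alone (circRNA3582, chromosome 8, 80800101 to 80800395, minus strand) stood, in the authors' deposited table, at 0.84 on the log2 scale (p = 0.0989). Exons 2 to 6 (circRNA12806) stood at 1.83 (p = 0.295) and exons 2 to 4 (circRNA3580) had values in A only (p = 0.186) in the authors' deposited table. The 295 nt of circRNA3582 encode residues 25 to 123 of 695, in the pleckstrin homology domain that binds membrane lipids. They are preceded by an intron of 79136 nt, the longest upstream intron beside any of these circles. The circle is shown whole, with the 20 bases at each end in capitals, because its acceptor is the start of all 4 Gab1 circles.
Gab1 circRNA3582: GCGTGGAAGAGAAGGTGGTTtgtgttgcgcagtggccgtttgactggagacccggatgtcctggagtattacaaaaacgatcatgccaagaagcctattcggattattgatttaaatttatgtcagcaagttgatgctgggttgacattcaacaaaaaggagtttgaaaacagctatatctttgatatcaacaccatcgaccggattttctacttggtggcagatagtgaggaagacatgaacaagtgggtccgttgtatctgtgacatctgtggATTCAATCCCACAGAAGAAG

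Nck2, an SH2 and SH3 adaptor gene, had 1 circle of exons 2 and 3 of 5 that holds the start codon (circRNA3043), which stood at 1.23 on the log2 scale in the authors' deposited table (p = 0.108). Its relative Nck1 had single-exon circles of exon 2, which holds the start codon, and exon 3, each seen in a single library. Ptpn11 circRNA9365 (exons 8 to 10 of 16) stood at 0.90 in the authors' deposited table (p = 0.565), and its other 7 circles were seen in a single library each. Plcg1 circRNA2975 (exons 6 to 13) stood at 0.20 (p = 0.578) in the authors' deposited table, and 3 Plcg1 circles had values in more than 1 library of A only (p = 0.144, 0.184 and 0.185). An intronic Plcg1 circle had values in B only (p = 0.192 in the authors' deposited table). The endocytic adaptor genes Eps15 and Eps15l1 had circRNA18010 at 0.42 (p = 0.85) and circRNA3553 at 0.50 (p = 0.239) in the authors' deposited table. Shc1 had an intronic circle, Src a circle of exons 6 to 8 of 14, and Eps8 had 2 circles, all seen in a single library.

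The exchange factor gene Sos2 had 8 circles, all higher in A (66.0% of all catalogue circles), and 4 of the 8 start at exon 2 of 23. The authors' deposited table gave exons 2 to 5 (circRNA310, chromosome 12, 69640054 to 69658078, minus strand) a log2 fold change of 0.27 with p = 0.0517. It gave exons 2 to 4 (circRNA311) 0.16 (p = 0.942), exons 2 to 7 (circRNA4432) 1.13 (p = 0.469) and exons 13 to 16 (circRNA13560) 1.15 (p = 0.653) in the authors' deposited table. Sos1 circRNA14976 (exons 2 to 4 of 22) stood at -1.03 in the authors' deposited table (p = 0.508), and its circle of exons 7 to 9 was seen in a single library of A.

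RAS genes gave 4 circles. Nras circRNA10559 (exons 3 and 4 of 7, residues 38 to 150 of 189) stood at -0.40 (p = 0.73) in the authors' deposited table. Nras circRNA18458 (exons 4 and 5, with the stop codon) stood at 0.19 (p = 0.922) in the authors' deposited table. Nras circRNA18457 was seen in a single library of A and lies on an isoform with a reading frame of 46 residues. The single Hras circle, circRNA8431, joined exons 2 to 5 of 6 and held the start and the stop codon, that is, the whole reading frame of 189 residues in 617 nt. It was the only circle of these hosts with both codons, and it was seen in a single library of A.

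Braf circles covered most of the gene, from exon 2 to exon 21 of 22, and did not lie on 1 side. The circle of exons 17 to 21 (circRNA8596, residues 602 to 798 of 804, overlapping the kinase domain) stood at 1.15 on the log2 scale (p = 0.47) in the authors' deposited table. Exons 9 to 16 (circRNA8598) stood at -0.47 (p = 0.532) and exons 5 to 8 (circRNA16862) at -0.26 (p = 0.876) in the authors' deposited table. Exons 2 to 4 (circRNA8599) had values in A only (p = 0.203 in the authors' deposited table).

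The 5 circles of both MEK kinase genes were all higher in B, where 66.0% of all catalogue circles were higher in A. Exons 2 to 5 of 11 of Map2k1 (circRNA12280) stood in the authors' deposited table at -1.04 (p = 0.214) and exons 2 and 3 (circRNA3346) at -1.002 (p = 0.274). Exons 2 to 8 and 7 to 8 of Map2k1 were each seen in a single library of B. Map2k2 exons 2 to 4 (circRNA5678) stood at -0.65 in the authors' deposited table (p = 0.404). None of these circles had a p under 0.05 in the authors' deposited table. The junctions with values in both groups are shown to set the shared Map2k1 acceptor beside that of Map2k2. They run from 20 bases before the back-splice (lower case) to 20 bases after it (capitals).
Map2k1 circRNA12280: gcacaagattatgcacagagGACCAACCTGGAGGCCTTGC
Map2k1 circRNA3346: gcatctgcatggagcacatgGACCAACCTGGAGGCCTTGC
Map2k2 circRNA5678: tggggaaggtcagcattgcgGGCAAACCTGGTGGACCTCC

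The kinase gene Pak1 had 5 circles, all higher in A (66.0% of all catalogue circles). Its circRNA1746 (exons 6 to 9 of 15, chromosome 7, 97883472 to 97894013, plus strand) stood at 1.91 on the log2 scale in the authors' deposited table (p = 0.0978). The other 4 were seen in a single library each. The junction of circRNA1746, in the same form, is shown for its rank by p, beside that of Sos2 circRNA310.
Pak1 circRNA1746: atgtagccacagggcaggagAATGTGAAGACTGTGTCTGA
Sos2 circRNA310: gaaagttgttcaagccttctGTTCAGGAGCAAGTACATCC

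Pak2 circles went both ways. Exons 11 to 13 (circRNA6391) stood at 0.31 (p = 0.789), exons 8 to 12 (circRNA6392) at 0.98 (p = 0.53) and exons 8 to 10 (circRNA6394) at -0.63 (p = 0.784) in the authors' deposited table. Its remaining 8 circles were seen in a single library each, 7 of them in A. Among STAT transcription factor genes, Stat3 circRNA14182 (exons 2 to 4) stood at -0.99 (p = 0.53) in the authors' deposited table. Stat5b circRNA14180 (exons 2 and 3) stood at -0.91 (p = 0.707) and circRNA14178 (exons 11 to 13) at -0.08 (p = 0.97) in the authors' deposited table. Of the 9 Stat5b circles, 7 were higher in B, where 66.0% of all catalogue circles were higher in A. A single library held 7 of the 9, and the 2 found in at least 2 libraries were higher in B.

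Nf1 circles lay mostly toward A. Of 31 circles, 25 were higher in A, as were 15 of the 16 found in at least 2 libraries. In the catalogue 66.0% of all circles and 70.1% of those found in at least 2 libraries were higher in A. The exception among these, circRNA22265 (exons 12 to 14 of 57), had values in B only (p = 0.186 in the authors' deposited table). All 11 circles with values in both groups were higher in A (catalogue 67.3%), with log2 fold changes from 0.08 (circRNA5035, exons 2 to 4) to 2.48 (circRNA537, exons 31 to 35) in the authors' deposited table. The circle circRNA537 (chromosome 11, 79468717 to 79475883, plus strand) had the smallest p of the Nf1 circles in the authors' deposited table (p = 0.0506, adjusted p = 0.522). Its 662 nt encode residues 1373 to 1593 of 2820, which overlap the domain that stimulates the GTPase of RAS.

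Other Nf1 circles with values in both groups ran along the gene. The authors' deposited table gave log2 fold changes of 0.79 to exons 2 to 5 (circRNA5037, p = 0.588) and 1.94 to exons 4 and 5 (circRNA5039, p = 0.541). Toward the middle it gave 0.47 to exons 9 to 13 (circRNA5041, p = 0.834), 0.88 to exons 13 to 17 (circRNA14056, p = 0.715) and 1.23 to exons 15 to 17 (circRNA5044, p = 0.637) in the authors' deposited table. In or next to the part that acts on RAS it gave 1.21 to exons 25 to 27 (circRNA534, p = 0.194) and 0.72 to exons 28 to 30 (circRNA536, p = 0.312) in the authors' deposited table. Exons 15 to 35 (circRNA14057), with 3137 nt the longest of the 11, stood at 0.77 (p = 0.743), and exons 45 to 47 (circRNA5046) at 0.67 (p = 0.577) in the authors' deposited table. Circles of a host share splice sites and libraries, so these 11 directions are not independent.

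**Figure D3:**
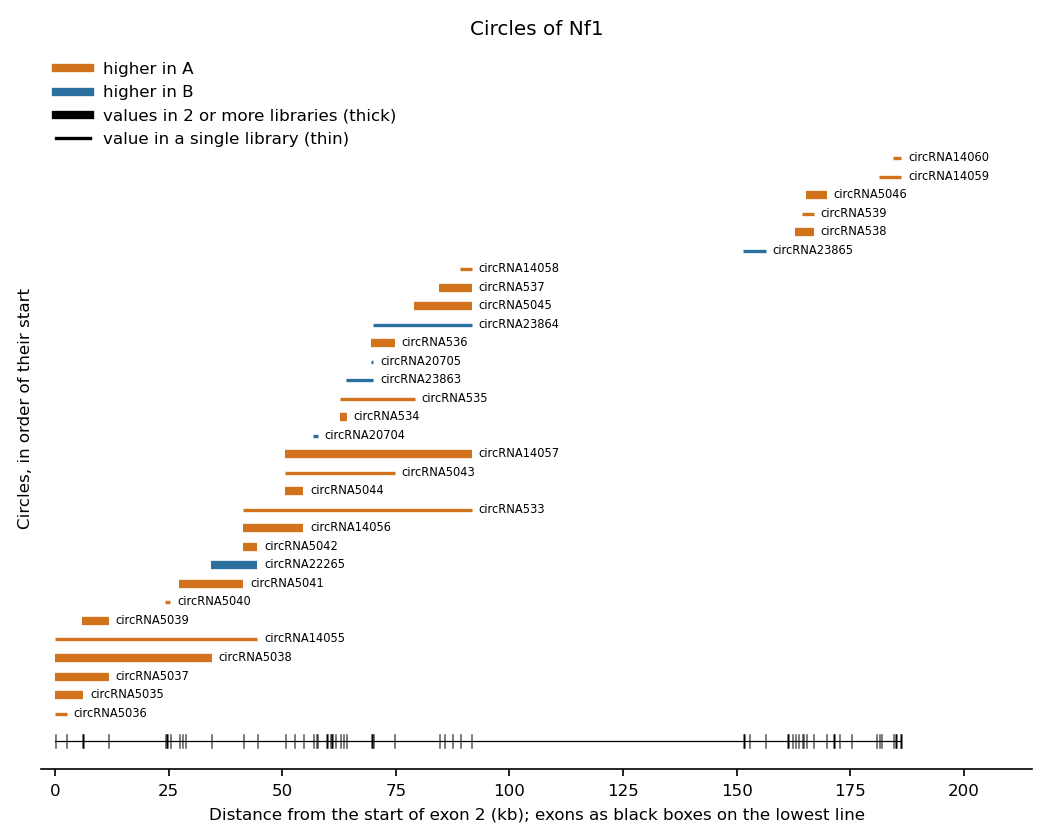
The 31 circles of Nf1 as lines along the gene (horizontal axis, distance from the start of exon 2 in kb; exons as black boxes), orange where higher in A and blue where higher in B, thick where values were in 2 or more libraries. A stack of 6 circles ends at the same place before the longest gap without exons, and 5 circles start together at exon 2.

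Circles of the same host reused splice sites. The donor of Nf1 exon 35 closed 6 circles, which start at exons 13, 15, 29, 31 and 34 and, on an isoform with 1 more exon, at exon 31 of 58, where the shared exon is number 36. This donor is followed by an intron of 59719 nt. In the whole catalogue 37 of 19669 donors closed as many circles or more. Of these 6 circles, 5 were higher in A, as were 66.0% of all catalogue circles. Among the 6, circRNA533, circRNA23864 and circRNA14058 were each seen in a single library. The 6 junctions, shown for the shared side, carry the same 20 bases of exon 35 before the back-splice and differ in the bases after it (capitals).
Nf1 circRNA533: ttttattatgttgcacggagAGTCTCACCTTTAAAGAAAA
Nf1 circRNA14057: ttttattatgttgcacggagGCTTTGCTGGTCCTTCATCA
Nf1 circRNA23864: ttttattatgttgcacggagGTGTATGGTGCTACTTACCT
Nf1 circRNA5045: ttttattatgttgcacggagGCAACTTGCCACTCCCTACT
Nf1 circRNA537: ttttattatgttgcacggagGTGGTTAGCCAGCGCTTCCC
Nf1 circRNA14058: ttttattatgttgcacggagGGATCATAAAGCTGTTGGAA

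A donor of Ptpn11, at the end of exon 10, closed 4 circles that start at exons 8, 7, 3 and 2. Of these, 3 were higher in A, as were 66.0% of all catalogue circles. All but circRNA9365 were seen in a single library each. In the same form the 4 junctions read as follows.
Ptpn11 circRNA9365: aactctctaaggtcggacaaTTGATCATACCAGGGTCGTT
Ptpn11 circRNA2215: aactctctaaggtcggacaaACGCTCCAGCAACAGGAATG
Ptpn11 circRNA25086: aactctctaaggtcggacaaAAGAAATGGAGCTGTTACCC
Ptpn11 circRNA2216: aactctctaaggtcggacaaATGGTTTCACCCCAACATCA

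Across the hosts, 14 splice sites were used by 3 circles or more, 10 acceptors and 4 donors. Exon 2 held 7 of the 10 acceptors, those of Nf1 (5 circles), Gab1, Ptpn11, Sos2 and Stat5b (4 each), and Braf and Map2k1 (3 each). The same count was not made over the catalogue, so the 7 of 10 cannot be called particular to these hosts. Exon 2 starts 25.9% of placed circles here and 23.4% in the catalogue. All circles from the exon 2 acceptor were higher in A for Nf1, Gab1, Sos2 and Braf, and all were higher in B for Map2k1. In the catalogue 66.0% of all circles were higher in A. Each of these acceptors had at least 1 circle seen in a single library. For Braf these were circRNA16863 and circRNA16864 of its 3. Stat5b had 2 on each side. Sharing of a splice site with another circle of the host was close to the catalogue, at 105 of 142 exonic circles (73.9%), against 17536 of 23657 in the catalogue (74.1%). Both counts leave out hosts with a single exonic circle, which here hold 7 circles. In the catalogue 15.7% of hosts with 4 circles or more had all of them on the same side. Here 5 of 16 hosts did (31.3%), namely Sos2, Pak1 and Gab1 toward A and Cblb and Map2k1 toward B. Toward A these were 3 of 16 hosts (18.8%, exact 95% binomial interval 4.05 to 45.6%, counting error only), against 13.9% of catalogue hosts. Toward B they were 2 of 16 (12.5%, exact 95% binomial interval 1.55 to 38.3%, counting error only), against 1.82% of catalogue hosts. No test was made of either difference. Such intervals treat the hosts as a random draw, which a chosen list is not. Cblb and Map2k1 had 4 circles each, the fewest that enter this count. A single library held 3 of the 4 Cblb circles, 2 of 4 for Map2k1, 4 of 5 for Pak1, 3 of 8 for Sos2 and 1 of 4 for Gab1.

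**Figure D4:**
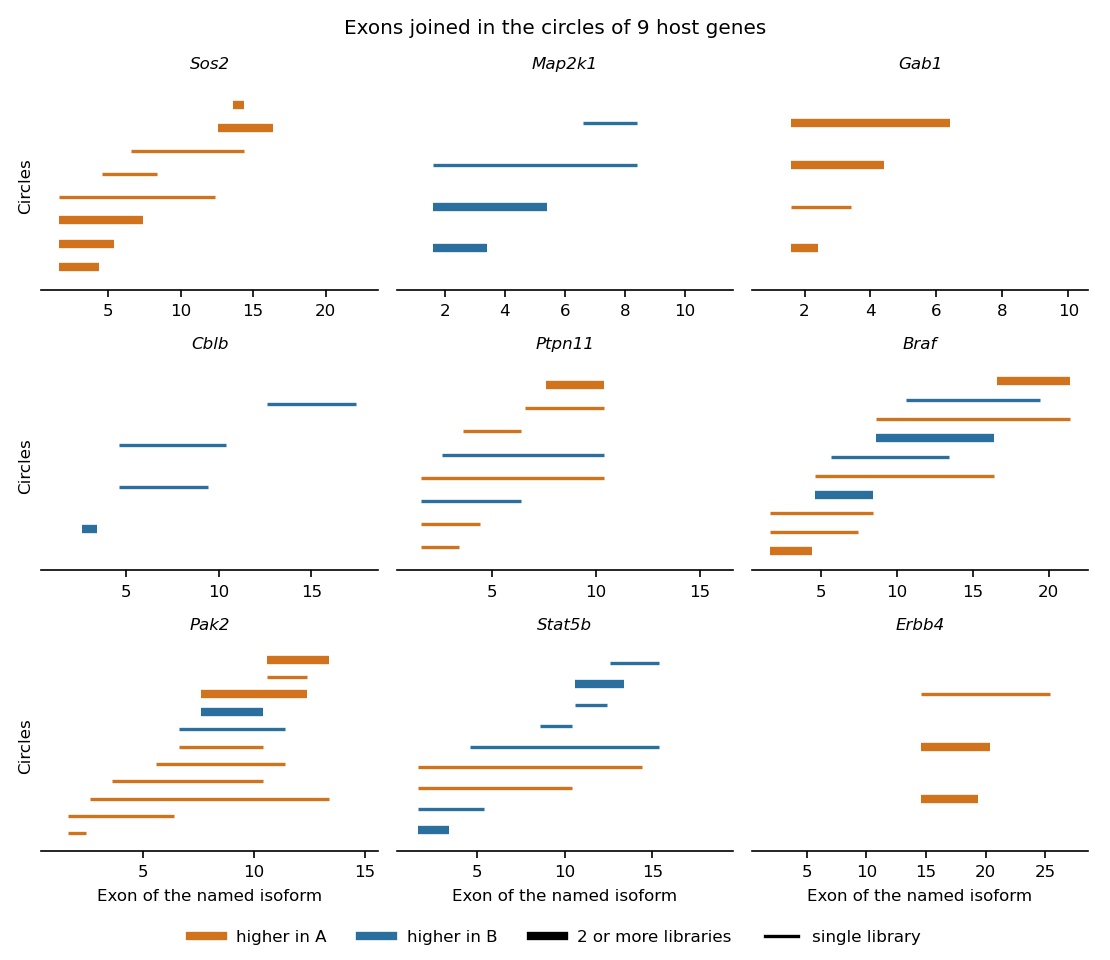
Exons joined in each circle (horizontal axis, exon number on the named isoform; 1 line per circle) for 9 host genes, orange where higher in A and blue where higher in B, thick where values were in 2 or more libraries. Sos2, Gab1 and Erbb4 are orange throughout and Map2k1 and Cblb blue throughout. Sets of 3 circles or more that start together at exon 2 are seen in Sos2, Map2k1, Gab1, Ptpn11, Braf and Stat5b.

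By the ratio used here, the introns beside the circles were longer than the other introns for most hosts. For each circle the mean of both flanking introns was divided by the median of the other introns of the isoform. The median of this ratio over the circles of a host was above 1 for 26 of 29 hosts (89.7%), against 90.0% of catalogue hosts. Over hosts the median ratio was 2.19, against 2.89 in the catalogue. Where intron lengths are skewed, a mean set over a median can lie above 1 even for introns taken at random. With a single flanking intron in place of the mean, the median ratio was 2.79 upstream and 1.73 downstream (catalogue 2.81 and 2.17). Map2k1 had the largest ratio (19.2), followed by Gab1 (13.4) and Lrig3 (11.7). Flanking introns were shorter for Tgfa (ratio 0.106), Eps8 (0.916) and Egf (0.988). For Plcg1 the median was 173 nt for the flanks and 158 nt for the others, but not all of its circles lay between short introns. The introns beside circRNA2975 had 2633 and 610 nt, those beside circRNA21765 799 and 1324 nt, and those beside circRNA11336 722 and 1324 nt. Circles starting at exon 2 followed an intron with a median of 30182 nt, against 13318 nt for such circles in the catalogue. They made up 38 of 147 placed circles (25.9%, catalogue 23.4%).

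**Figure D5:**
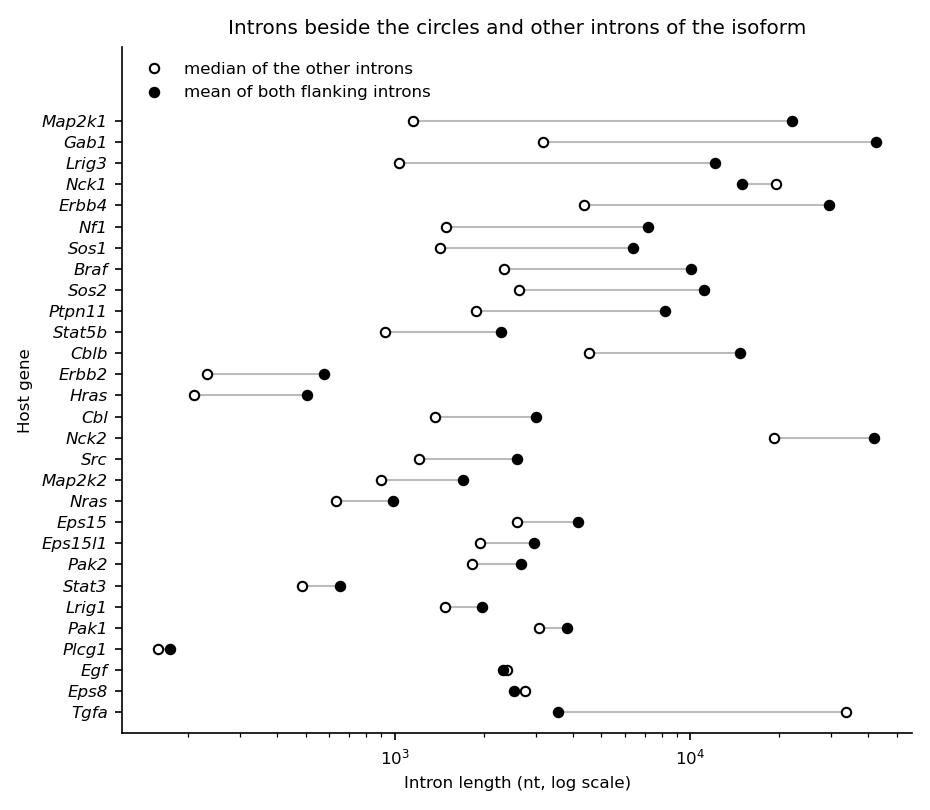
Intron lengths in nt (horizontal axis, log scale) for 29 host genes, ordered by the median ratio over their circles; filled points are the median over circles of the mean of both flanking introns, open points the median of the other introns of the isoform. Filled points lie to the right for most hosts, with the widest gaps at Map2k1, Gab1 and Lrig3, and to the left for Tgfa, Eps8 and Egf, and for Nck1, whose isoform has few introns.

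The median exonic length was 504 nt (quartiles 346 and 741), against 469 nt in the catalogue, with 4 exons against 3. The largest was Nf1 circRNA533, with 23 exons and 3386 nt, seen in a single library. A single exon made up 7 circles, from Cblb, Erbb2, Gab1, Nck1, Pak2 and Sos2. Coding sequence alone filled 130 of the 147 placed circles (88.4%, catalogue 83.6%), and 58 of these 130 had a length that is a multiple of 3 (44.6%, catalogue 39.5%). The start codon lay in 10 circles (6.80%, catalogue 10.5%), from Stat5b, Pak2, Stat3, Nck1, Nck2 and Hras, and the stop codon in 5, from Plcg1, Nras and Hras. The Plcg1 isoform named in the file is annotated with a reading frame of 513 residues that ends at exon 16 of 33, so the stop codon and 3′ UTR assignments of its circles hold for that isoform alone. The median GC content was 46.8%, against 49.4% in the catalogue.

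Of 73 other genes of the pathway, among them further RAS, RAF, MAPK, exchange factor and GTPase-activating protein genes, 51 hosted 263 circles. Group A had the higher value for 84 (70.0%) of the 120 circles found in at least 2 libraries. The authors' deposited table marked 1 of the 263 circles as higher in A and 0 as higher in B, where it marked 1.23% and 0.521% of all circles. The marked circle was Ksr2 circRNA2208, from a gene for a scaffold of RAF and MEK, with values in A only (p = 0.0448 in the authors' deposited table).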

How the data were processed

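Exonic and intronic circRNAs were measured in RNase R-treated total RNA of 6 ovary libraries, 3 per age. GRCm38 and, without its role, Bowtie 0.12.2 are listed in the submitters' processing notes. No source used here names the circRNA caller, its filters or the test. Both deposited tables hold the same 27999 circles, and 1 line per table is not analysed here. Per the file headers, the log2 fold change was computed by the authors from group means, and the p-value and its adjusted form come from the deposited comparison table. A Benjamini-Hochberg adjustment of the deposited p came within 1.52e-05 of the deposited adjusted p (statsmodels 0.14.6). Columns of values per library (24) and of group means (2) are headed by letters that match no sample label and were not used, so depth is unknown and no test of libraries was run. The planned test of junction counts could therefore not be made.

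Circles were placed on their named isoform in GENCODE M21 by exact exon ends, which succeeded for 147 of 149 exonic circles of these hosts and 25828 of 26144 in all (pandas 2.3.3). The placement was tested on simulated transcripts. For 1 circle of these hosts, Cbl circRNA12172, the deposited exon count differed from the annotated one. Coordinates count from 1. Sequences come from GENCODE M21 transcripts. Shares and medians are set beside those of the whole catalogue, with no test. Named are the circles that the authors marked, that have p under 0.1 or that have values in both groups, the hosts with most circles, and extremes of structure. Circles of Nf1 and Ptpn11 shown for a shared donor, and other circles seen in a single library, were chosen after their values were seen. The genes, gene lists and tests were chosen with earlier results of these data known.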

Additional observations from a re-analysis of the deposited data

How the results depend on the processing

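The count of 1 marked circle stayed at 1 with no limit on the fold change. It was 0 at p under 0.01 and 0 at an adjusted p under 0.05 in the authors' deposited table, where 1 circle of these hosts had an unadjusted p under 0.05. The share higher in A was 71.2% and lay at 65.6% over all 157 circles (catalogue 66.0%), 66.7% with values in both groups (catalogue 67.3%) and 62.8% without Nf1. With each host counted once it was 57.1%, which by construction gives the 16 Nf1 circles the weight of 1 host. The catalogue share was not computed with each host counted once. The median log2 fold change of 0.45 became 0.027 after the catalogue median was subtracted, and 0.19 without Nf1. The ratio of flanking to other introns was 1.47 without circles that start at exon 2 (catalogue 2.31). It was 2.79 for the upstream intron (catalogue 2.81) and 1.73 for the downstream intron (catalogue 2.17). The median exonic length was 423 nt with values in 2 or more libraries (catalogue 445 nt). Sharing of splice sites was 71.2% without Nf1. Settings without Nf1 were chosen after seeing the data.

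Not run were a pseudocount on group means, leaving out replicates and reverse-complementary flanks, since group means and library columns match no label and no genome sequence was used here. No paired analysis was possible because the columns of values carry no sample label.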

Other observations

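Some circles of paralogous hosts joined corresponding exons. Sos1 circRNA14976 and Sos2 circRNA311 both joined exons 2 to 4, had 423 nt and encoded residues 30 to 170, in the histone-fold part of both exchange factors. Base by base, 313 of 423 positions were equal (74.0%). Their log2 fold changes in the authors' deposited table were -1.03 and 0.16, with p = 0.508 and 0.942. The pair was chosen after its coordinates were seen, and how often other paralogues share circles was not tested. The first 240 bases of each from the acceptor of exon 2 are shown, with the bases that differ in capitals (GENCODE M21 transcripts, GRCm38, minus strands of chromosomes 17 and 12).
Sos1 circRNA14976: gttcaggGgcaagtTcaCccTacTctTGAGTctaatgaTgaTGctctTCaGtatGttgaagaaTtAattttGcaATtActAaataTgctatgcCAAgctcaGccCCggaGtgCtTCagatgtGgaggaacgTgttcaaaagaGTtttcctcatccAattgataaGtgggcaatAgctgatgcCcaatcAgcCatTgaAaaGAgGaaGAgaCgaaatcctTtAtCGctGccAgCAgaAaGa
Sos2 circRNA311: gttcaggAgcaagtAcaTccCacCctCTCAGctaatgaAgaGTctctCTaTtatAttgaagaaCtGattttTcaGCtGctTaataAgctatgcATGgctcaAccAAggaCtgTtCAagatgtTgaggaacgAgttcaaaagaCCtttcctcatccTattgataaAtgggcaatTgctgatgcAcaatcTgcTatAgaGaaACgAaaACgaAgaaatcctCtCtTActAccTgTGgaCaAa

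Eps15 circRNA18010 and Eps15l1 circRNA20221 both joined exons 14 and 15 and had 360 nt, with 206 equal positions (57.2%) when set side by side without gaps. The Eps15 circle had values in both groups, but the Eps15l1 circle was seen in a single library of A. Nck1 circRNA25956 and Nck2 circRNA3043 both held the start codon and encoded residues 1 to 76. The Nck1 circle is exon 2 alone and the Nck2 circle exons 2 and 3.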
